A study of Homo sapiens with 7 samples.

Results

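Prolonged loss of DNMT1 was compared with short loss in 2 Hi-C libraries of DLD-1, an established human cell line from a colorectal adenocarcinoma. They were chosen by their titles as DNMT1-AID cells after 10 d and after 4 d of auxin, and are 2 of the 7 libraries of the series. In DNMT1-AID cells, DNMT1 carries an auxin-inducible degron, so that the protein is degraded once auxin (indole-3-acetic acid, 500 nM per the labels) is added. Both libraries came from cells that carry the degron and that still have DNMT3B. The other 5 libraries, used only as reference values, came in part from DNMT1-AID cells, untreated or with 4 d of washout after 4 d of auxin. The rest came from cells that carry the degron and lack DNMT3B (knockout cells), either untreated or after 4 d or 10 d of auxin. The untreated knockout library was placed by its title, since its genotype label names DNMT1-AID alone.

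DNMT1 is the maintenance DNA methyltransferase, which restores methylation on the new strand after each round of replication, so methylation is diluted over cell divisions when it is missing. DNMT3B is a de novo enzyme that acts, among other places, on the satellite repeats beside centromeres. In the nucleus each chromosome keeps to a territory, active and inactive chromatin separate into compartments, and contact falls steeply with distance along the chromosome. Hi-C ligates DNA ends that lay close together and counts the joined pairs. A contact within a chromosome is called cis, and a contact between chromosomes is called trans.

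Each group held 1 library, so no difference could be set against the spread between cultures, and no test was made. The counts over chromosomes, arms or pairs describe these libraries only. Whether the 10 d and 4 d cells came from parallel cultures is not given in the sources used here, and the length of auxin exposure cannot be told apart from an effect of auxin itself. The 4 d library held 222645438 contacts and the 10 d library 158423127, from a separation of 100 kb on, and the other 5 held between 27345260 and 133252390. At these depths counting error is small: the share of trans contacts at 4 d had a 95% exact binomial (Clopper-Pearson) interval of 20.522% to 20.533%. Such intervals cover counting error only. The tables hold contact sums and no values for genes, so the loss of DNMT1 and the identity of the cells could not be checked from them.

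At 10 d more contacts joined different chromosomes. Trans contacts made up 26.2% of all contacts at 10 d and 20.5% at 4 d, which is 1.28-fold, or a log2 ratio of 0.35. The untreated library had 21.4% and the washout library 23.1%, so the 10 d library was the highest of the 4 DNMT1-AID libraries and the 4 d library the lowest. This order held on each of the 23 chromosomes (1 to 22 and X). The share was higher at 10 d on 23 of 23 chromosomes (100% of those compared), by log2 ratios from 0.28 to 0.39.

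**Figure D1:**
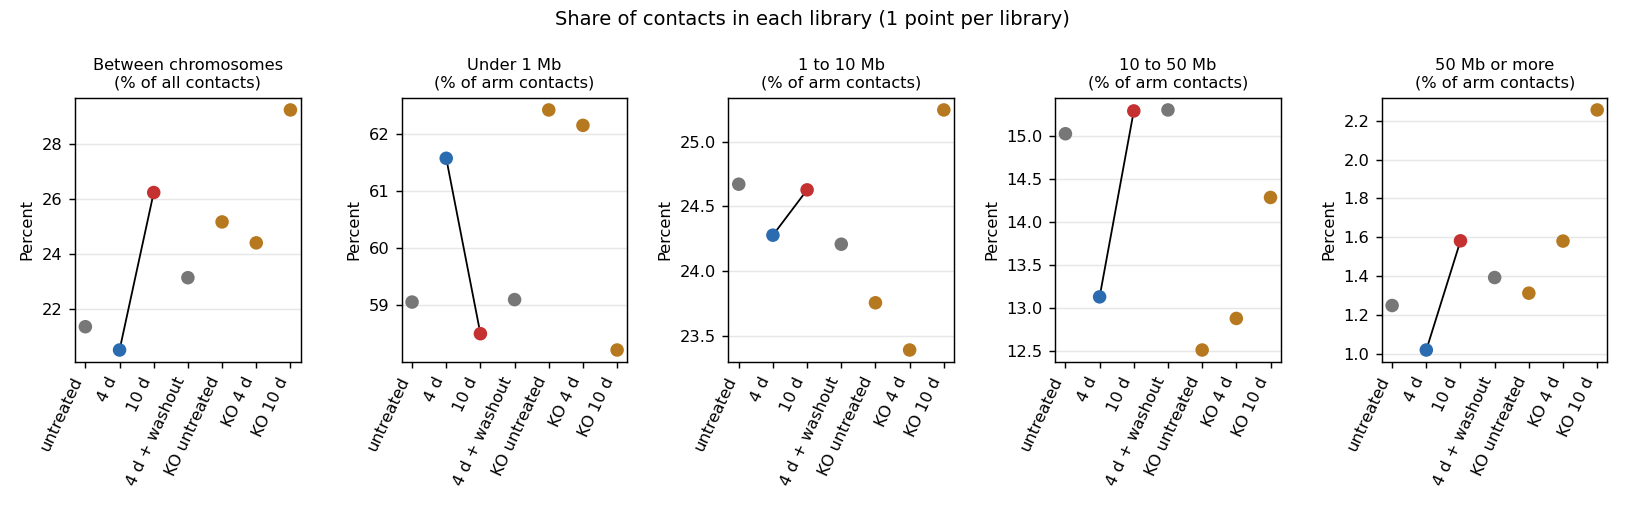
Share of contacts between chromosomes (percent of all contacts) and in 4 bands of separation (percent of contacts within chromosome arms) in each of the 7 libraries, 1 point per library, with a line joining 4 d and 10 d in DNMT1-AID cells; the axes do not start at 0. The trans share goes from 20.5% to 26.2% and the share at 50 Mb or more from 1.02% to 1.58%, while the share under 1 Mb goes from 61.6% to 58.5%.

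The size of the trans difference varied with the chromosome. For single chromosomes the share is that of contact ends, with 2 ends for a cis contact and 1 for a trans contact. The largest log2 ratios were on chromosome 4 (0.39), which has 4.05 protein-coding genes per Mb, chromosome 5 (0.39) and chromosome X (0.38). Chromosome 4 had 16.6% at 4 d and 21.7% at 10 d, and chromosome X had 18.6% and 24.2%. The smallest were on chromosome 16 (0.28), chromosome 22 (0.29) and chromosome 19 (0.30), the last with 24.7 genes per Mb. Chromosome 16 had 27.4% at 4 d and 33.4% at 10 d, chromosome 22 had 33.6% and 41.2%, and chromosome 19 had 30% and 36.9%. Chromosomes with a high share at 4 d thus had smaller ratios (Spearman's rho -0.91 across 23 chromosomes of the same 2 libraries, which share the 4 d value on both axes). In percentage points the order was another: the difference was 5.17 points on chromosome 4, and it was largest on chromosomes 21, 22 and 17, with 7.75, 7.61 and 7.31 points.

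The trans difference also depended on which cis contacts it was set against. With cis contacts counted from 1 Mb on, the log2 ratio of the trans share was 0.20. With cis contacts counted from 10 Mb on, it was 0.080, which is 1.06-fold. A share that is already high can differ by less on the log2 scale, and against cis contacts from 10 Mb on the trans share was 59.4% at 4 d and 62.8% at 10 d. As a ratio of trans to cis contacts, which has no upper bound, the log2 difference was 0.46 with all cis contacts, 0.34 with cis contacts from 1 Mb on and 0.21 with those from 10 Mb on. The mean balanced contact between chromosomes was higher at 10 d by 0.33 (log2), and every pair of the 23 chromosomes lay above 0, from 0.21 to 0.42.

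Coverage also differed between the libraries, with the highest ratios on gene-rich chromosomes. The share of all contact ends on chromosome 19 was 1.08-fold at 10 d, on 22 1.05-fold, on 16 1.04-fold and on 17 1.04-fold, whereas on 13 and 4 it was 0.975-fold and 0.976-fold. In knockout cells the same ratios were 1.16, 1.11, 1.07, 1.07, 0.958 and 0.954. The part of coverage in the differences by chromosome was not tested.

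Within chromosome arms, contact at 10 d was shifted from short to long separations. Contacts under 1 Mb made up 58.5% of arm contacts at 10 d and 61.6% at 4 d (log2 ratio -0.074). The share was lower in 42 of 42 arms (100%) with at least 1000 contacts in the band in both libraries. At 1 to 10 Mb the share was 24.6% against 24.3% (0.021), higher in 37 of 41 arms (90.2%). At 10 to 50 Mb it was 15.3% against 13.1% (0.22), higher in 41 of 41 arms (100%). At 50 Mb or more it was 1.58% against 1.02%, a 1.55-fold difference (0.63), higher in 23 of 23 arms (100%). As shares of all contacts, trans included, the 4 bands had log2 ratios of -0.20, -0.10, 0.098 and 0.51, so that the direction turned at 1 to 10 Mb.

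Set beside the other DNMT1-AID libraries, the 4 d library stood at an end in most bands. It had the highest share under 1 Mb of the 4 libraries in 42 of 42 arms and the lowest share at 10 to 50 Mb in 41 of 41. The 10 d library lay nearer to the untreated library, which had 59.1%, 24.7%, 15% and 1.25% in the 4 bands, and to the washout library, with 59.1%, 24.2%, 15.3% and 1.39%. Still, its share under 1 Mb was the lowest of the 4 libraries in 30 of 42 arms. At 10 to 50 Mb its share was above the untreated one in 32 of 41 arms and above the washout one in 15. At 50 Mb or more it went past both: its share was above the untreated one in 22 of 23 arms and above the washout one in 21 of 23. With 1 library a group, a difference of the 10 d cells and a 4 d library that stands apart cannot be told apart in the bands where 10 d and untreated lie close.

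The difference varied with the length of the arm in Mb. In the band under 1 Mb the lowest log2 ratios were on 1q (-0.092), 4q (-0.091) and 2p (-0.090), of 125.5, 139.5 and 93.2 Mb. On 1q the share was 60.4% at 4 d and 56.7% at 10 d. The highest were on 21p (-0.033), 17p (-0.034) and 20p (-0.035), of 11.9, 24.7 and 28.2 Mb. On 17p it was 75.3% and 73.5%. The value of 21p rests on 1096 contacts at 10 d and 1855 at 4 d, and its counting interval reaches 0.11 to either side. Across 42 arms the log2 ratio was lower the longer the arm (rho -0.90, as a description, since the arms share both libraries and an arm of few Mb holds no long separations).

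At 1 to 10 Mb the arms differed in direction. The share was lower at 10 d on 5q (-0.026), 2q (-0.0098), 12q (-0.0059) and 4q (-0.00071), 4 of 41 arms (9.76%). The value of 4q lies within its counting interval, 0.0029 to either side, and is 0.0021 with balanced sums. The log2 ratio was highest on 18p (0.11), where the share went from 23.5% at 4 d to 25.3% at 10 d, then on 22q (0.086) and 19p (0.086). The arm 18p was the only one at or above 0.1 (2.44% of arms). On 5q the share was 25.4% at 4 d and 25% at 10 d.

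At 10 to 50 Mb the highest log2 ratios were 0.43 on 17p, 0.41 on 17q and 0.39 on 19q, and 40 of 41 arms (97.6%) were at or above 0.1. The share on 17q was 7.18% at 4 d and 9.55% at 10 d, with 9.3% untreated, and on 19q it was 4.64% and 6.06%, with 6.48% untreated. On 17p it was 2.22% and 2.99%. The lowest arms were Xq (0.082), 5p (0.14) and 9p (0.15), and Xq, with 19.4% at 4 d and 20.6% at 10 d, was the 1 arm under 0.1. Across 41 arms the log2 ratio and the number of protein-coding genes per Mb had a rho of 0.63, as a description of arms that share both libraries and whose length also differs. Single arms left that order: 19p, with the most genes per Mb (25.1), had 0.27, and 18p, with 3.86, had 0.33. The arm 18p has 18.15 Mb and so holds the lower part of the band only. Its value rests on 6355 contacts at 10 d and 8142 at 4 d, and was 0.23 with balanced sums.

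At 50 Mb or more the highest log2 ratios were 1.12 on 7p, 0.97 on 17q and 0.91 on 6p, arms of 59.9, 58.6 and 59.2 Mb in which such contacts join the ends of the arm. These rest on few contacts: 7p had 1964 at 10 d and 1410 at 4 d, and its share was 0.0852% against 0.0393%. With balanced sums 6p had 1.33. The lowest values were on Xq (0.21), 18q (0.50) and 8q (0.54), and 18q, with 62.2 Mb, is hardly longer than the highest arms. On 8q the share was 1.32% at 4 d and 1.91% at 10 d.

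Contact per bin pair at each separation gave the shape of the shift. It is the mean balanced contact of 50 kb bins at that distance, and since each bin is scaled to a common total, a higher trans level goes with lower contact within chromosomes as a whole. From 0.1 to 0.15 Mb the log2 ratio was -0.15, and it was lowest at 0.65 to 0.8 Mb, at -0.23. Up to 2.5 Mb contact was lower in 41 of 41 arms in every bin. It came nearest to 0 at 4 to 5 Mb (-0.021, lower in 32 of 41 arms), was -0.043 at 7.95 to 10 Mb, and turned to 0.028 at 12.6 to 15.85 Mb, higher in 32 of 41 arms. From there the ratio was higher in each bin up to 79.45 to 100 Mb, where it was 0.64 and all 15 arms with enough contacts lay between 0.35 and 0.79. Beyond 100 Mb it was 0.58 and 0.45 in 4 and 2 arms.

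**Figure D2:**
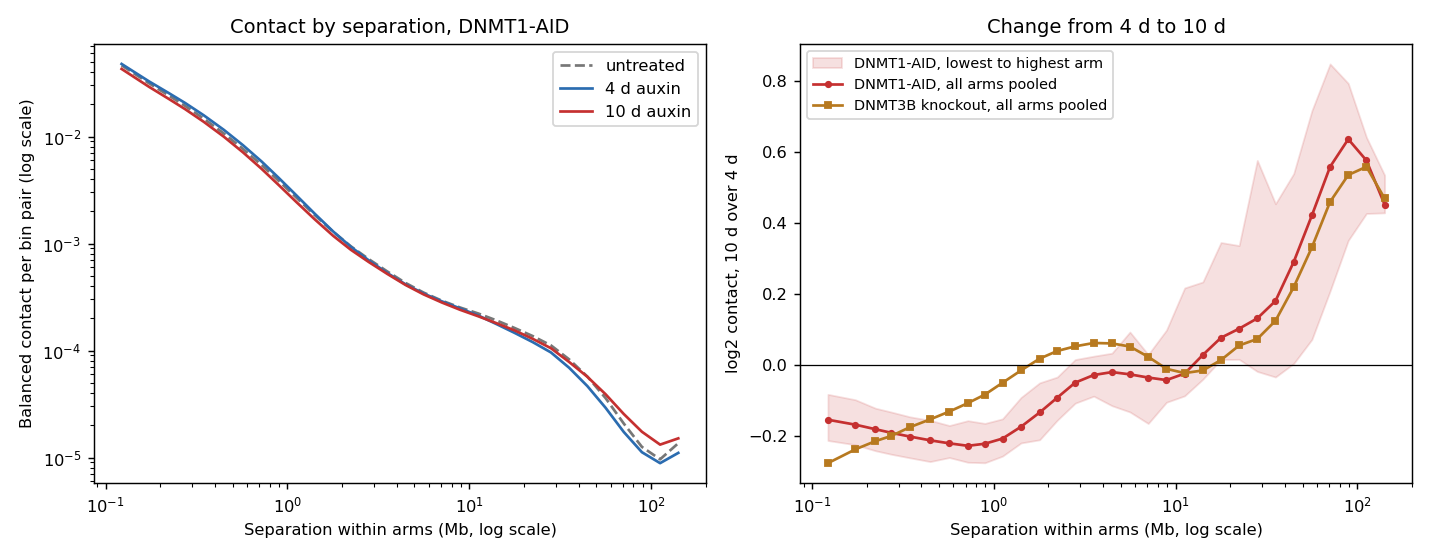
Left, balanced contact per bin pair within arms against separation in Mb, both on log scales, for the untreated, 4 d and 10 d DNMT1-AID libraries. Right, the log2 ratio of 10 d over 4 d for all arms pooled in DNMT1-AID and knockout cells, with a band from the lowest to the highest arm in DNMT1-AID cells; it is lowest at 0.65 to 0.8 Mb (-0.23) and highest at 79.45 to 100 Mb (0.64).

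The turning point was shared by most arms, with a few that left the common course. At 15.85 to 19.95 Mb contact was higher at 10 d in 40 of 40 arms. At 25.1 to 31.6 Mb and at 31.6 to 39.8 Mb the single arm below 0 was Xq, with -0.019 and -0.034. Xq was the lowest arm in each bin from 19.95 Mb up to 100 Mb, whereas under 1 Mb Xp or Xq was the highest in each bin. Xp was the highest arm at 39.8 to 50.1 Mb, at 0.54, so that the arms of chromosome X differed. On 17q the ratio was the lowest of all arms in each bin under 0.65 Mb, down to -0.27, and on 18p it was the highest between 4 and 10 Mb, up to 0.098.

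**Figure D3:**
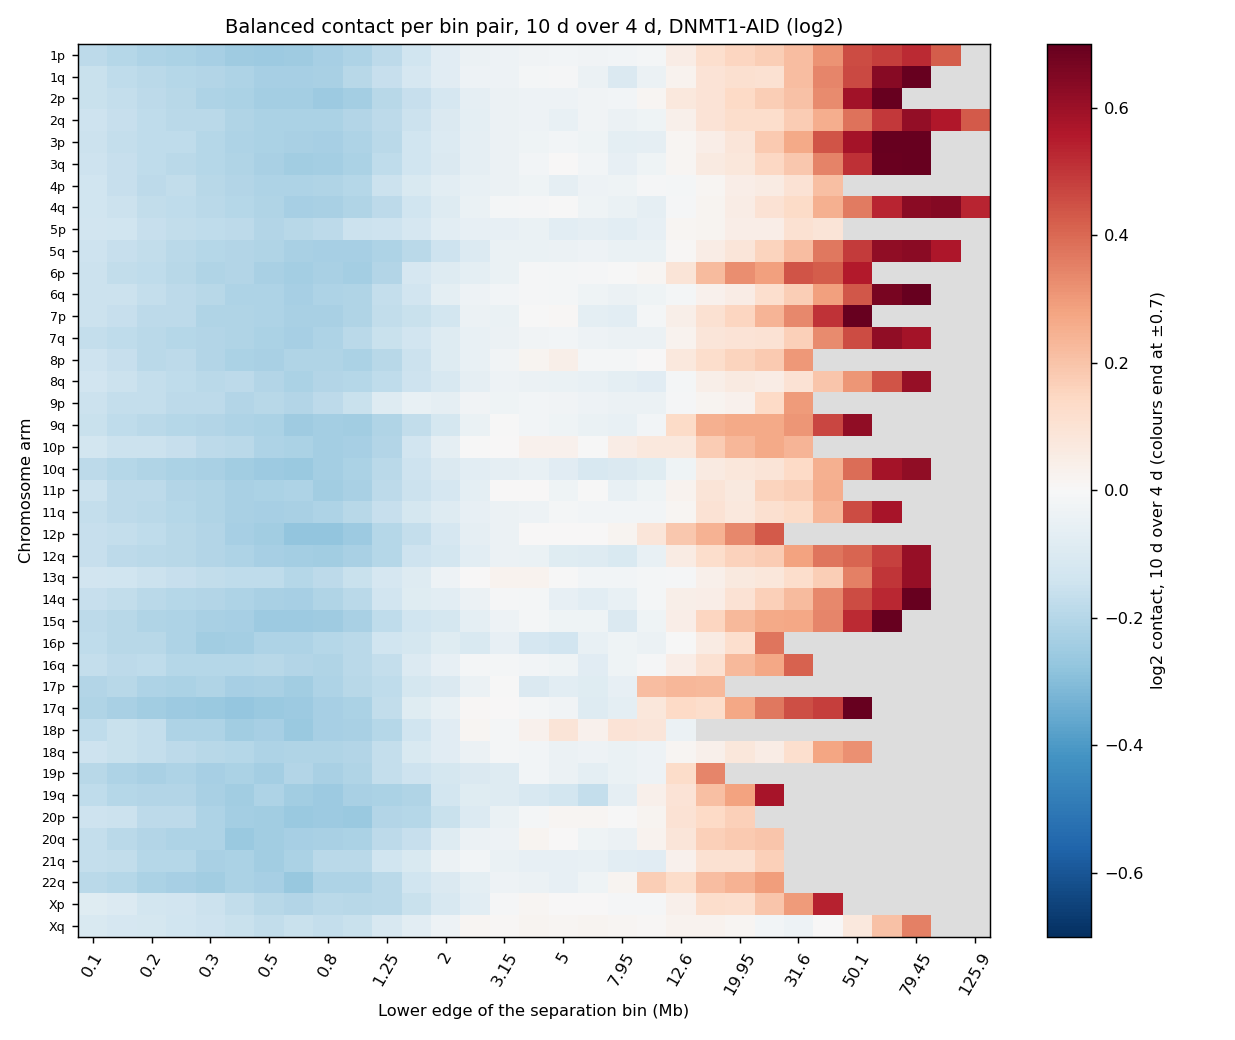
Log2 ratio of balanced contact per bin pair, 10 d over 4 d in DNMT1-AID cells, for 41 arms (rows) in bins of separation (columns, lower edge in Mb); grey cells had under 1000 contacts in a library or lie beyond the arm. Blue cells, lower at 10 d, fill the columns up to 2.5 Mb in every arm, and red cells, higher at 10 d, fill nearly all columns from 15.85 Mb on, with Xq the palest row.

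Measured against the trans level, mid-range contact within arms was lower at 10 d and the longest range was higher. At 10 to 12.6 Mb contact within arms was 51.9 times the mean contact between chromosomes at 4 d and 40.5 times at 10 d, with 52.2 times untreated. At 39.8 to 50.1 Mb it was 11.4 and 11 times. At 79.45 to 100 Mb it was 2.74 times at 4 d, 2.96 times untreated and 3.37 times at 10 d. Contacts across the largest distances within an arm thus differed by more than contacts between chromosomes did.

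The decay of contact between 0.5 and 5 Mb was shallower at 10 d. The exponent is the slope of log10 contact on log10 separation, so a value nearer to 0 means a slower fall. It was -1.38 at 10 d, -1.47 at 4 d, -1.403 untreated and -1.38 after washout. The difference from 4 d to 10 d was 0.081 (SD of 0.012 over arms). All 41 arms (100%) had the higher exponent at 10 d. The 4 d library had the lowest exponent of the 4 DNMT1-AID libraries in all 41 arms. The 10 d exponent was above the untreated one in 35 arms and above the washout one in 19. Here too a difference of the 10 d cells and a 4 d library that stands apart cannot be told apart. The largest differences from 4 d to 10 d were on 18p (0.11), 17q (0.10) and 10p (0.099), and the smallest on 16p (0.051), 19q (0.057) and 5p (0.058). On 17q the exponent was -1.58 at 4 d and -1.47 at 10 d, and on 16p it was -1.37 and -1.32. In the range of 5 to 50 Mb the pooled difference was 0.10, but there 19q had 0.30, 18p had -0.023 and Xq had -0.0097. The arms 18p, of 18.15 Mb, and 19q, of 32.8 Mb, do not span that range.

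Contact between the arms of a chromosome, relative to contact within them, was lower at 10 d on most chromosomes. The inter-arm ratio is balanced contact between the arms over that within the arms at the same separation, from 20 to 50 Mb, on 18 chromosomes with enough bin pairs. It was 0.787 at 10 d, 0.887 at 4 d, 0.845 untreated and 0.851 after washout. The 10 d library was thus the lowest of the 4 and the 4 d library the highest. By chromosome, 10 d was the lowest of the 4 on 15 of 18 and 4 d the highest on 13. The log2 ratio of 10 d over 4 d was -0.17, with an SD over chromosomes of 0.16. The ratio was lower on 17 of 18 chromosomes (94.4%), and on 13 (72.2%) it was lower by at least 0.1, while 1 (5.56%) was higher by at least 0.1.

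**Figure D4:**
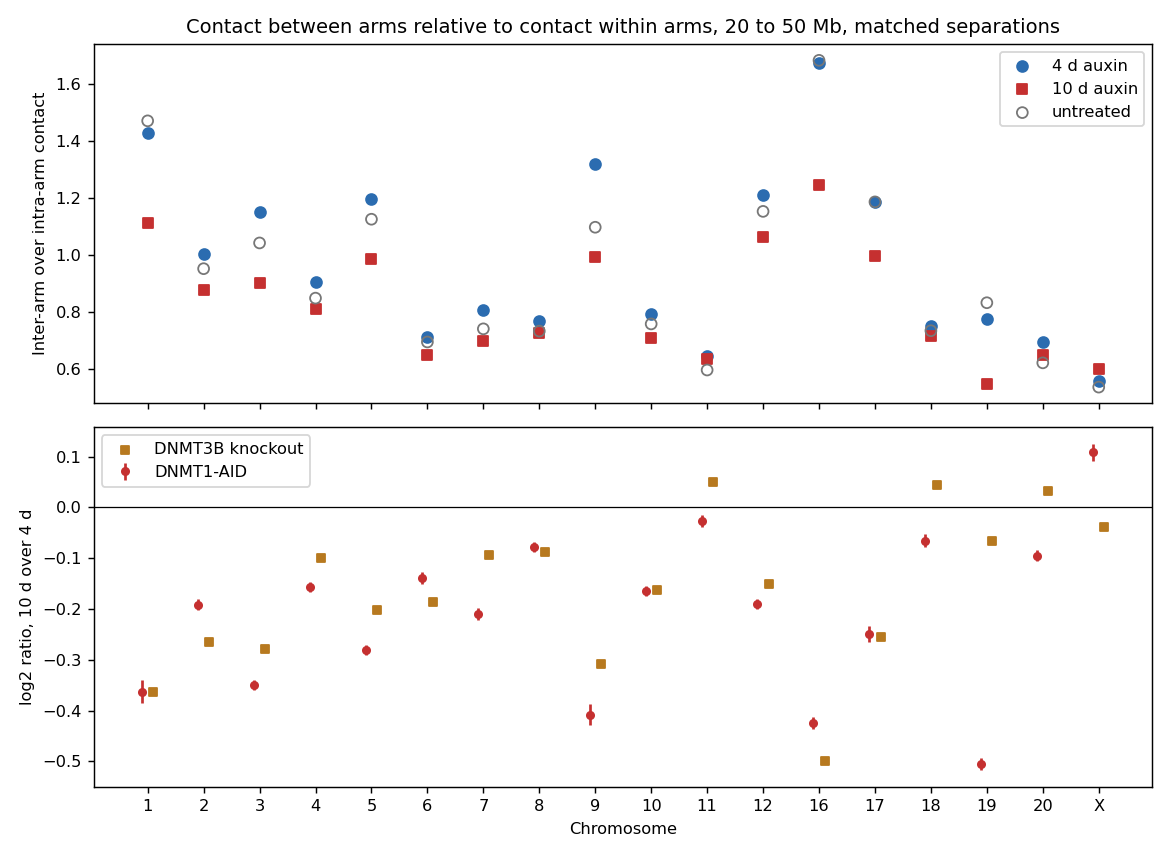
Top, contact between arms over contact within arms at matched separations of 20 to 50 Mb, for 18 chromosomes in the untreated, 4 d and 10 d DNMT1-AID libraries. Bottom, log2 ratio of 10 d over 4 d in DNMT1-AID cells, with 95% intervals from inter-arm counts alone, and in knockout cells. These intervals leave out the counting error of contact within arms and so are too narrow for the ratio. Chromosomes 19 (-0.51), 16 (-0.42) and 9 (-0.41) lie lowest in DNMT1-AID cells and X (0.11) highest.

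Chromosomes 1, 9 and 16 carry the largest blocks of satellite DNA next to the centromere, repeats that are normally methylated, in part by DNMT3B. Their inter-arm log2 ratios were among the lowest 4 of the 18: -0.42 on chromosome 16, -0.41 on 9 and -0.36 on 1, beside a median of -0.19 over all 18. Chromosome 3, which was not in this list, had -0.35, next to chromosome 1. Pooled over separations chromosome 3 was the lowest of all (-0.30), and chromosome 9 (-0.23) was no longer among the lowest 4. On chromosome 16 the inter-arm ratio was 1.68 untreated, 1.67 at 4 d and 1.25 at 10 d. On chromosome 1 it was 1.47, 1.43 and 1.11. On chromosome 9 it was 1.10, 1.32 and 0.993, so that on 9 the 4 d value also stood above the untreated one. Without these 3 chromosomes the pooled log2 ratio was -0.16. On 16, 9 and 1, contact between the arms had log2 ratios of -0.041, 0.027 and -0.068, and contact within them 0.38, 0.44 and 0.30.

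The lowest value was on chromosome 19, -0.51, with ratios of 0.833 untreated, 0.777 at 4 d and 0.547 at 10 d. This value depends on matching the separations: pooled over separations it was -0.26, while 16 had -0.29 and 1 had -0.25. At matched separations, contact between the arms of 19 had a log2 ratio of -0.022 and contact within them 0.48. The highest inter-arm log2 ratios were on chromosomes X (0.11), 11 (-0.027) and 18 (-0.066). On X, the only chromosome above 0, the inter-arm ratio was 0.557 at 4 d and 0.600 at 10 d.

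Both parts of the ratio were followed by separation. At 5 to 10 Mb, contact between arms was lower at 10 d by a log2 ratio of -0.14, and contact within arms at the same separations by -0.044. At 20 to 30 Mb the values were -0.035 between arms and 0.15 within arms. At 40 to 50 Mb they were 0.11 and 0.29, and at 70 to 100 Mb 0.36 and 0.60. Inter-arm contact was thus also higher at 10 d at long range, by less than intra-arm contact. The ratio was lower in each of the 7 ranges, from -0.099 to -0.24. The ranges do not cover the same chromosomes: 14 were used at 5 to 10 Mb, 18 at 30 to 40 Mb and 12 at 70 to 100 Mb. The part of this in the differences between ranges was not tested. Inter-arm contact at 20 to 50 Mb was itself lower on chromosomes 3 (-0.11), 1 (-0.068), 5 (-0.061), 16 (-0.041), 19 (-0.022) and 4 (-0.0094), and on 9 it was 0.027.

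Between chromosomes, the higher trans level at 10 d was spread almost evenly over pairs. Relative to the median pair, which was 1.26-fold, the spread over pairs was small: 2 pairs (0.791%) lay at or below -0.1 and 0 pairs (0%) at or above 0.1 on the log2 scale, while 24 (9.49%) lay at or below -0.05 and 19 (7.51%) at or above 0.05. Counting error of a pair was at most 0.025 to either side. The lowest pairs joined small chromosomes: 16 with 22 (-0.12), 16 with 21 (-0.10), 18 with 22 (-0.095), 16 with 17 (-0.094) and 18 with 21 (-0.094). The contact of 16 with 22 was 2.65 times the mean pair untreated, 2.45 times at 4 d, 2.26 times at 10 d and 2.64 times after washout.

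**Figure D5:**
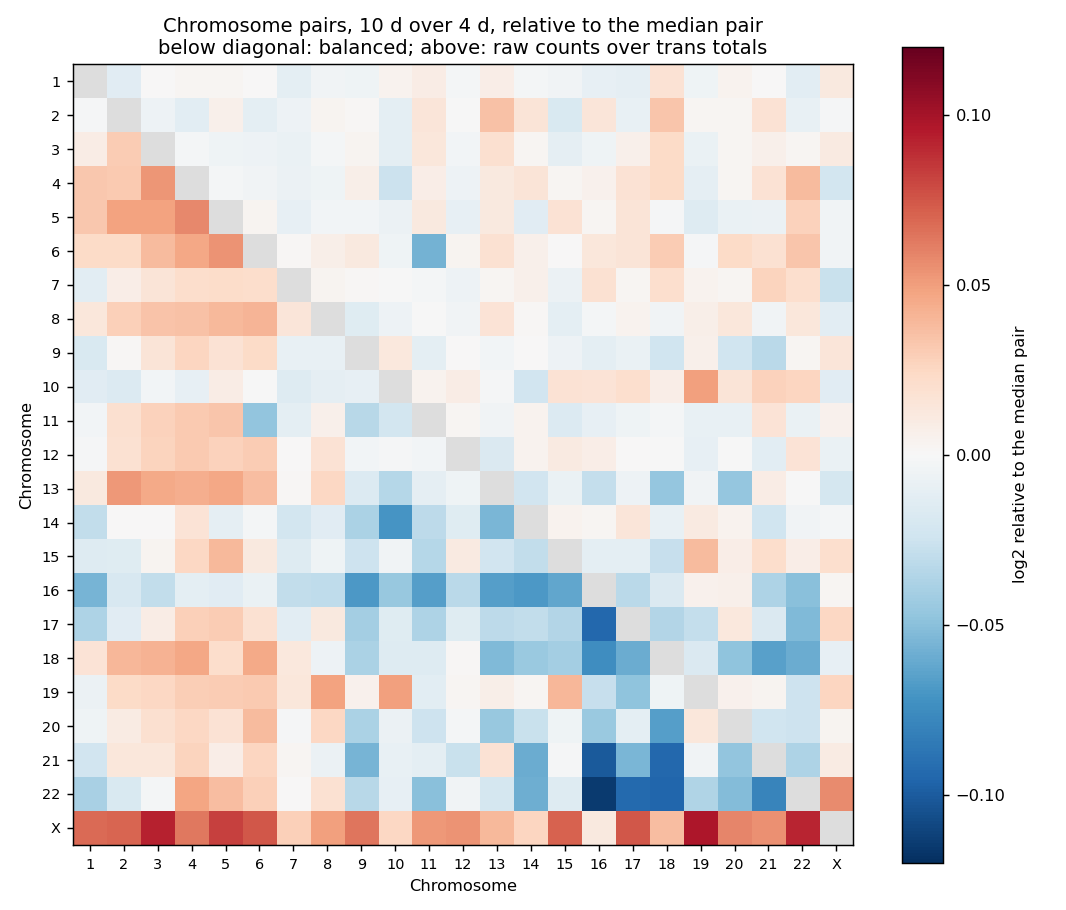
Log2 ratio of 10 d over 4 d in DNMT1-AID cells relative to the median pair for all pairs of the 23 chromosomes, from balanced contact below the diagonal and from raw counts divided by the trans totals of both chromosomes above it. In balanced values the row of chromosome X is red throughout and the darkest blue cells are pairs among 16, 17, 18, 21 and 22; above the diagonal colours are paler.

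The highest pairs all held chromosome X: 19 with X (0.097), 3 with X (0.092), 22 with X (0.092), 5 with X (0.082) and 6 with X (0.074). All 22 pairs of X lay above the median pair, with a median of 0.061, where 49.8% of all pairs do. The contact of 19 with X was 0.680 times the mean pair untreated, 0.716 at 4 d, 0.762 at 10 d and 0.680 after washout. With raw counts per bin pair, 19 of 22 pairs of X lay above the median pair, with a median of 0.034, and chromosome 19 was higher, with 22 of 22 and a median of 0.051. After division by the trans totals, which takes out what all pairs of a chromosome share, 22 with X had 0.057 and 19 with X 0.026, while 5 with X and 6 with X turned to -0.0045 and -0.0039. Chromosome 16 stood at the other end, with 21 of 22 pairs below the median pair and a median of -0.045.

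The 3 lists of 5 chromosomes differed by little. Among the small gene-rich chromosomes 16, 17, 19, 20 and 22, 9 of 10 pairs lay below the median pair, with a median of -0.046, from -0.12 for 16 with 22 to 0.014 for 19 with 20. Their median contact was 2.55 times the mean pair untreated, 2.43 times at 4 d and 2.34 times at 10 d. Among the acrocentric chromosomes 13, 14, 15, 21 and 22, whose short arms carry the ribosomal RNA genes, 9 of 10 lay below, with a median of -0.026, from -0.080 for 21 with 22 to 0.017 for 13 with 21. Among the chromosomes 4, 5, 13, 18 and X, listed as gene-poor, 9 of 10 lay above, with a median of 0.045. They ran from -0.053 for 13 with 18 to 0.082 for 5 with X. Without X the list median was also 0.045. Chromosome X, with 5.43 genes per Mb, has more than chromosomes 8, 21, 2 and 3 (4.93, 5.11, 5.18 and 5.38), which were not listed. Over all pairs 49.8% lay below and 49.8% above, with 1 pair as the median. After raw counts were divided by trans totals, the medians were -0.025, -0.0020 and -0.0032, so that the gene-poor value turned. Over all pairs, change and 4 d contact had a rho of -0.77 (pairs share chromosomes, and both quantities hold the 4 d library), so that pairs with high contact at 4 d lay low.

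The same interval was then read in cells without DNMT3B, whose 4 d and 10 d libraries are separate from those of DNMT1-AID cells. The trans share there went from 24.4% to 29.2%, a log2 ratio of 0.26 against 0.35 in DNMT1-AID cells. It was higher on 23 of 23 chromosomes (100%), and the log2 ratio was larger in DNMT1-AID cells on 23 of 23, by 0.094 pooled. The share under 1 Mb in knockout cells was 62.4% untreated, 62.1% at 4 d and 58.2% at 10 d. From 4 d to 10 d it was lower in 41 of 41 arms (100%) of the knockout and by at least 0.1 in 14 (34.1%). Its log2 ratio was -0.094 in knockout cells and -0.074 in DNMT1-AID cells. At 10 to 50 Mb the values were 0.15 and 0.22, with 34 of 41 knockout arms (82.9%) at or above 0.1, and at 50 Mb or more 0.51 and 0.63. In the band of 1 to 10 Mb all arms differed one way: its share had 0.11 in knockout cells, higher in 41 of 41 arms (100%) and at or above 0.1 in 31 (75.6%), and 0.021 in DNMT1-AID cells, and the knockout value was the larger in all 41 arms.

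By separation, the knockout libraries had their lowest ratio at the shortest distance, -0.28 at 0.1 to 0.15 Mb, where DNMT1-AID cells had -0.15. Balanced contact was higher at 10 d from 1.6 to 7.95 Mb in the knockout, up to 0.061. It was lower at every one of these separations in DNMT1-AID cells. As a share of arm contacts, however, contact from 2 to 7.95 Mb was higher at 10 d in DNMT1-AID cells as well. From 39.8 to 100 Mb both were positive and DNMT1-AID cells had the larger ratio, by 0.071 at 39.8 to 50.1 Mb and by 0.10 at 79.45 to 100 Mb, where the values were 0.53 in the knockout and 0.64. The decay exponent differed by 0.070 in knockout cells and 0.081 in DNMT1-AID cells.

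The inter-arm ratio was also lower at 10 d in the knockout, 0.706 against 0.779, with 0.846 untreated. In the knockout the 4 d value thus lay below the untreated one, whereas in DNMT1-AID cells it lay above (0.887 against 0.845). The log2 ratio of 10 d over 4 d in the knockout was -0.14. The inter-arm ratio was lower on 15 of 18 chromosomes (83.3%) and by at least 0.1 on 10 (55.6%). Chromosome 16 had -0.50, chromosome 1 -0.36 and chromosome 9 -0.31. Across 18 chromosomes the values of the genotypes had a rho of 0.73. The genotypes were farthest apart on chromosome 19, with -0.066 in the knockout and -0.51 in DNMT1-AID cells. Pairs of the gene-rich list had a median of 0.061 in the knockout and -0.046 in DNMT1-AID cells. Pairs of the gene-poor list had 0.046 and 0.045, and those of the acrocentric list -0.011 and -0.026. With 1 library each, none of these differences between genotypes was tested.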

How the data were processed

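Per the labels' protocols, an Arima kit was used for Hi-C and both ends of the fragments were sequenced. The submitters' processing notes name BWA and hg38. The version, read filters and balancing program were not given in the sources used here. Per the file headers, the deposited tables give sums of raw contact counts and of balanced signal, with the valid bin pairs behind them, for each separation in steps of 50 kb within arms, within chromosomes and between arms, and for each chromosome pair. The deposited counts include bins masked by balancing, so shares use counts and contact per bin pair uses the balanced signal. Values start at 100 kb. Chromosomes 1 to 22 and X were used. Arms needed 1000 contacts in a band or bin in both libraries, and inter-arm ratios 10000 valid bin pairs of each kind. The decay exponent is a least-squares slope over 20 log-spaced bins. Genes per Mb count the 19974 protein-coding genes of RefSeq's gene table for assembly GRCh38.p14.
The members, lists and settings were chosen with earlier results of these data known. Features named are the 3 highest and lowest arms or chromosomes, the 5 highest and lowest pairs, chromosomes 1, 9 and 16 for the inter-arm ratio, and the ends of each list; 4q, 18p and 19p, chromosomes 17 and 21, chromosomes 3, 4 and 5 for inter-arm contact, the pairs of 19 and single arms by separation were also named after their values were seen. Differences are log2 ratios with no test, and a log2 value of 0.1 is 1.07-fold. Scripts were tested on simulated libraries. Python 3.11.15, numpy 2.4.6, pandas 2.3.3 and scipy 1.17.1 were used.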

Additional observations from a re-analysis of the deposited data

Results flagged for a closer look

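Several values had opposite signs in DNMT1-AID and knockout cells for the same interval from 4 d to 10 d of auxin, and with 1 library each the difference was not tested. Pairs among the gene-rich small chromosomes had a median of -0.046 in DNMT1-AID cells and 0.061 in the knockout. Balanced contact within arms was lower in DNMT1-AID cells and higher in the knockout in 7 neighbouring ranges of separation: -0.13 and 0.017 at 1.6 to 2 Mb, -0.092 and 0.039 at 2 to 2.5 Mb, -0.050 and 0.052 at 2.5 to 3.15 Mb, -0.029 and 0.061 at 3.15 to 4 Mb, -0.021 and 0.060 at 4 to 5 Mb, -0.027 and 0.051 at 5 to 6.3 Mb, and -0.036 and 0.022 at 6.3 to 7.95 Mb. On this balanced scale a higher trans level goes with lower contact within chromosomes, and mean trans contact differed by 0.33 and 0.23. As shares of arm contacts, the log2 ratios in DNMT1-AID cells were -0.026 at 1.6 to 2 Mb and 0.021 at 2 to 2.5 Mb. They were positive in each range from there to 7.95 Mb, with 0.10 at 4 to 5 Mb. The part of the trans level in these signs was not tested. At 12.6 to 15.85 Mb the signs of balanced contact were the other way, 0.028 and -0.016. The pairs of chromosome X had a median of 0.061 in DNMT1-AID cells and -0.017 in the knockout, where 6 of 22 lay above the median pair. The inter-arm ratio of chromosome 11 had -0.027 and 0.050, that of chromosome 18 -0.066 and 0.045, and that of chromosome X 0.11 and -0.039.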

How the results depend on the processing

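No paired analysis was possible because each group holds 1 library and the labels give no replicate numbers. The log2 ratio of the trans share (0.35) was 0.34 with balanced sums, 0.20 and 0.080 with cis contacts from 1 Mb and from 10 Mb on, and 0.36 without chromosomes 8 and X. As trans over cis contacts, added after seeing the data, it was 0.46, and 0.21 with cis contacts from 10 Mb on. In knockout cells (0.26) it was 0.24, 0.11 and 0.056 under the first 3, settings added after seeing the data. As shares of all contacts, the bands under 1 Mb, at 1 to 10 Mb, at 10 to 50 Mb and at 50 Mb or more had -0.20, -0.10 (turned), 0.098 and 0.51, and as medians over arms -0.064, 0.036, 0.23 and 0.66. With balanced sums the last 3 had 0.024, 0.21 and 0.61. The difference in decay exponent (0.081) was 0.057 at 1 to 10 Mb, 0.10 at 5 to 50 Mb and 0.086 with raw counts per valid bin pair. The inter-arm log2 ratio (-0.17) was -0.12 pooled over separations, -0.16 at 10 to 40 Mb, -0.22 at 50 to 100 Mb, -0.18 with raw counts per valid bin pair and, added after seeing the data, -0.16 without chromosomes 1, 9 and 16 and -0.20 without X. The 2 pairs at or below -0.1 became 0 when raw counts were divided by trans totals, 6 relative to the mean of all trans contact, 1 without chromosome X (added after seeing the data) and 24 at a threshold of -0.05, where 19 pairs lay at or above 0.05. After division of raw counts by trans totals the list medians were -0.025 (gene-rich), -0.0032 (gene-poor, turned) and -0.0020 (acrocentric). Of 56 named arms, chromosomes and pairs, 53 kept their direction under the alternative tried for them. Those that turned were the inter-arm ratio of chromosome 11 (0.014 pooled over separations) and, from raw counts over trans totals, 5 with X (-0.0045) and 6 with X (-0.0039). Counting error was small for pooled values, and it limits arms with near 1000 contacts and 21p. The libraries were not reduced to a common depth, so the part of depth was not tested.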

Other observations

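The pair of chromosomes 6 and 11, singled out after its values were seen, stood apart from its neighbours in the plot of pairs. Its contact relative to the median pair was lower at 10 d, -0.047, and -0.057 from raw counts over trans totals, the third lowest of all pairs. Its contact was 1.28 times the mean pair untreated, 1.29 times at 4 d, 1.24 times at 10 d and 1.27 times after washout. In knockout cells the value from raw counts was -0.042. The pair of 10 and 19 stood at the other end, at 0.049 from raw counts in DNMT1-AID cells and 0.041 in the knockout, the second highest of the pairs in the former. Across all pairs, the raw values of the genotypes had a rho of 0.31 and the balanced values 0.22.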
